A study of Homo sapiens with 8 samples.

Results

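The genes described are 30 of the enzymes, regulators and carriers by which a cell makes cholesterol and fatty acids, taken by gene name from the 58735 genes of a count table. All 30 had enough reads to be tested, among 15135 genes that did. The samples were EPC2-hTERT cells, a human esophageal epithelial line immortalised with telomerase, and RNA-seq was run on 2 groups of 4 libraries. The miR-155OE libraries came from a stable line overexpressing the microRNA miR-155-5p from a lentivirus, and the CTRL libraries from control cells. The labels give neither what the control cells carry nor whether the overexpressing line is a clone or a pool. Both groups were grown on porous inserts in calcium-supplemented medium and then raised to the air-liquid interface, where such cells stratify.

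Cholesterol synthesis begins with acetyl-CoA, which passes through mevalonate to isoprenoid units, squalene and lanosterol, and then through a series of demethylations, reductions and isomerisations to cholesterol. The transcription factor SREBP-2 (SREBF2) drives the genes of this route when sterols are low. SREBP-1 (SREBF1) drives mainly the fatty acid genes. SCAP escorts both to their activating proteases and INSIG1 holds them back when sterols are plentiful. In a stratified squamous epithelium, sterols and long-chain lipids also supply the barrier between the outer cells.

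The microRNA pairs with its targets through its seed, and the members' 3′ UTRs were searched for that match. The mature sequence is shown because the search rests on it (RefSeq, GRCh38.p14, chr21:25573983-25574006, plus strand), with the seed, bases 2 to 8, in capitals. The seed match AGCATTA occurred in the longest annotated 3′ UTR of 1 of the 30 members (3.33%), against 1473 of 12510 tested genes with such a UTR (11.8%). The members' UTRs had a median length of 1071.5 bases and those of the tested genes 1381.5 bases. The single match lay in HMGCS1, the synthase of HMG-CoA, at chr5:43289447-43289475 on the minus strand (GRCh38), 1667 bases into a UTR of 1736 bases. Capitals mark the match in the site.
hsa-miR-155-5p: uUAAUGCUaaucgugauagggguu
HMGCS1 site: tactggcacagAGCATTAatcatacacct

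Promoters are shown for 4 of the called members and for SREBF2. EBP and FDPS were called lower in miR-155OE, and TM7SF2 and LBR higher, in the fit with the library number as a block, given below. Of these only EBP was also called on group alone. SREBF2 encodes the factor that drives the route. Each is the 250 bases before a RefSeq start site on GRCh38.p14, with capitals marking the CCAAT box (CCAAT, or ATTGG on the other strand) and the sterol response element (SRE, here TCACNCCAC on either strand). EBP lies at chrX:48521558-48521807 and FDPS at chr1:155308616-155308865, both on the plus strand. TM7SF2 lies at chr11:65111622-65111871 on the plus strand and LBR at chr1:225428822-225429071 on the minus strand. SREBF2 lies at chr22:41832855-41833104 on the plus strand.
EBP: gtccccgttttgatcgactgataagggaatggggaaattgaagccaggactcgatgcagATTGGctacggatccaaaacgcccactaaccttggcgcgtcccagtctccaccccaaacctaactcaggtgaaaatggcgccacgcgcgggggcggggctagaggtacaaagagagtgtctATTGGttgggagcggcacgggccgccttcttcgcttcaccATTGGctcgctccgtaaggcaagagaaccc
FDPS: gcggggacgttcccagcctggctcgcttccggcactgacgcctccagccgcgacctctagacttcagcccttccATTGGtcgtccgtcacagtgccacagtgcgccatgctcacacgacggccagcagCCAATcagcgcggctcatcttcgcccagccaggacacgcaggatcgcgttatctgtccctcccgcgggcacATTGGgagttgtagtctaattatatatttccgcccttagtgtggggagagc
TM7SF2: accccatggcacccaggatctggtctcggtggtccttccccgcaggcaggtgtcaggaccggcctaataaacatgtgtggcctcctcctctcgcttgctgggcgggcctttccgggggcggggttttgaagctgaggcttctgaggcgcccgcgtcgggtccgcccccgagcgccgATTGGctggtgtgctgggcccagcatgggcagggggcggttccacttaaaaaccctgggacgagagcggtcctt
LBR: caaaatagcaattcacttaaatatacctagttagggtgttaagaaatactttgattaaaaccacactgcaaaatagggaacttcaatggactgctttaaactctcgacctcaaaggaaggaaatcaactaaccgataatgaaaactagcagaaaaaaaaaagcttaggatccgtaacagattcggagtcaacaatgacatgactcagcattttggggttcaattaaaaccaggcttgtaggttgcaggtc
SREBF2: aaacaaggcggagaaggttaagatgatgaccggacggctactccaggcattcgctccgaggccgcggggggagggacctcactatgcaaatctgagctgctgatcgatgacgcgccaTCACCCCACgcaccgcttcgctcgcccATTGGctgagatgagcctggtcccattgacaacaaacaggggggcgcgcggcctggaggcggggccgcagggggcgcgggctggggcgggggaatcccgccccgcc

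EBP held 3 CCAAT boxes, at -191, -70 and -30 from the start site, and FDPS also held 3, at -176, -122 and -51. Of the other members called lower with the block, FDFT1 had no RefSeq promoter among those used, NSDHL held 5 and HSD17B7 held 1, at -52. TM7SF2 also held 1, at -74, and LBR held none. Whether the number of boxes goes with the direction of a difference was not tested. SREBF2 held an SRE at -133 and a CCAAT box at -106. Of the 26 members with a RefSeq promoter in the table used, 21 (80.8%) held a CCAAT box in at least 1 such window, against 4301 of 10438 tested genes (41.2%). The SRE letters occurred in 1 member (3.85%) and in 1.19% of tested genes. The E-box CACGTG, which reads the same on both strands, occurred in 3 members (11.5%) and in 11.1% of tested genes. The GC box GGGCGG, on either strand, occurred in 24 members (92.3%) and in 73.4% of tested genes. A CCAAT box can overlap a second one on the opposite strand, and such pairs were counted as 2. These matches describe the letters only, and binding was not measured.

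Total counts ran from 33443635 to 52746852 reads per library. The number behind each library's name recurs in both groups, and the labels do not say what a number shares or whether libraries are separate cultures, so p-values speak only of the spread among these 8 libraries, part of which may be technical. Same-numbered libraries deviated from their group means together (correlations across genes of 0.184 to 0.607), so a fit with the number as a block is given where it changes a call. Markers of squamous epithelium were all above 1 CPM (counts per 1000000 reads of the library), summing to 47078 to 60406 CPM in miR-155OE and 54848 to 65770 CPM in CTRL. Hepatocyte markers summed to at most 0.219 CPM in miR-155OE and 0.181 CPM in CTRL, and sebocyte markers to at most 0.0601 and 0.0516 CPM. The 6 fibroblast markers summed to 98.2 to 221 CPM in miR-155OE and 92.8 to 145 CPM in CTRL, with COL1A1 alone above 1 CPM and COL1A2, LUM and DCN at 0 reads. The 6 immune markers summed to 8.68 to 15.1 CPM in miR-155OE and 7.56 to 9.67 CPM in CTRL, with CD14 alone above 1 CPM. Their part in the results was not tested. The host gene MIR155HG and the hairpin gene MIR155 had 0 reads in all 8 libraries, where 3 reads would be 0.0573 to 0.0901 CPM, so the counts give no check of the overexpression.

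Across the 30 members, EBP was the one gene that passed the test between the groups, and it was lower in miR-155OE. In the quasi-likelihood F test of edgeR, with p adjusted by Benjamini and Hochberg's method over all genes and held to 0.05, 1 member fell (3.33%), against 1.05% of all tested genes, and 29 did not pass. No member rose by edgeR on group alone or by DESeq2, against 2.17% of all tested genes by edgeR on group alone. At an unadjusted p under 0.05 there were 5 members (16.7%), all lower, against 19.3% of all genes tested in both directions together. Of the 15135 genes tested, 1311 were lower and 1614 higher at that level. With the library number as a block 5 members fell (16.7%, against 5.17% of all genes) and 2 rose (6.67%, against 7.43%). The 5 were FDPS, FDFT1, NSDHL, HSD17B7 and EBP, and the 2 were TM7SF2 and LBR. Without pair 1 the blocked fit called none of them. Without pair 3 it called TM7SF2, FDFT1 and EBP, without pair 4 FDFT1 and EBP, and without pair 2 all but LBR, with PMVK higher and SC5D lower besides. Over all genes tested, these blocked fits without a pair called from 623 to 2059 genes. The members' median log2 fold change was -0.05, with 17 below 0 and 13 above, and that of all tested genes was -0.01, with 51.3% below 0. Here and below a log2 fold change is miR-155OE over CTRL, and in such bulk libraries fewer cells of a type and less RNA per cell cannot be told apart.

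Within same-numbered pairs, 10 members were lower in miR-155OE in 4 of 4 pairs (33.3%, against 16.9% of all tested genes). They were MVK, IDI1, FDPS, FDFT1, MSMO1, NSDHL, HSD17B7, EBP, SC5D and STARD4, of which all but STARD4 are enzymes of the sterol route. TM7SF2, LBR and SREBF1 were higher in 4 of 4 pairs (10.0%, against 18.8%). All miR-155OE libraries lay below all CTRL libraries for NSDHL and EBP (6.67% of members, against 5.25% of tested genes). No member had all its miR-155OE libraries above all CTRL libraries, which held for 6.16% of tested genes.

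**Figure D1:**
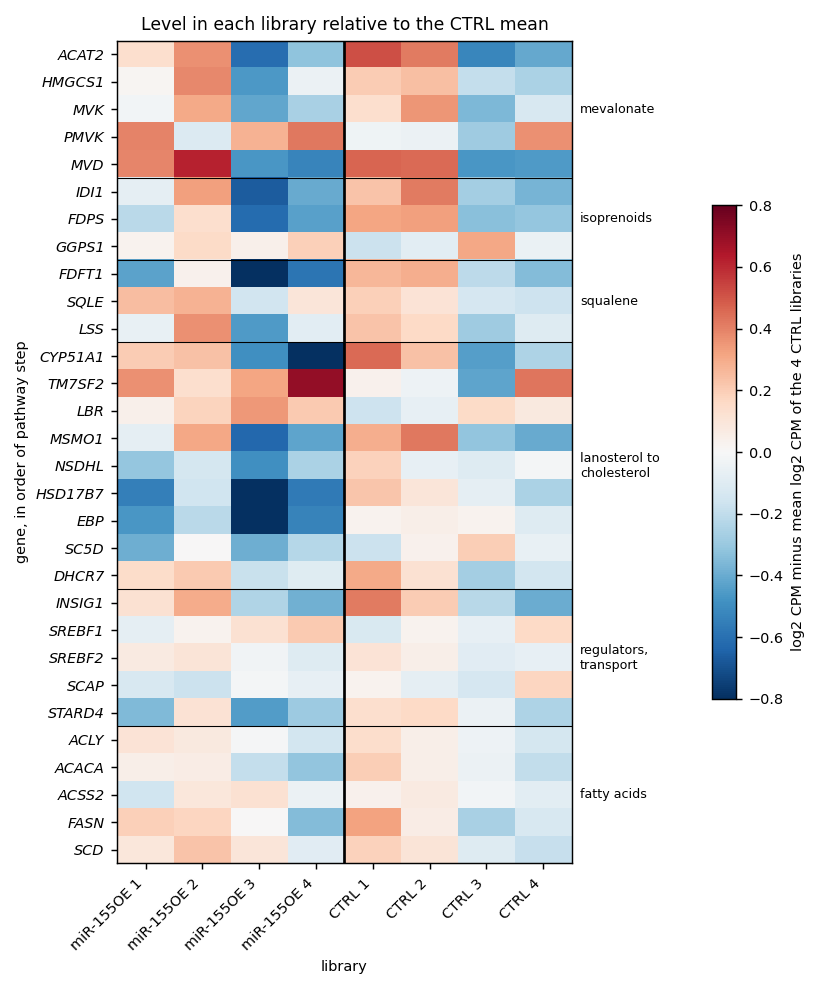
Level of each of the 30 genes (rows, in order of pathway step) in each library (columns, miR-155OE left and CTRL right), as log2 CPM minus the gene's mean log2 CPM over the 4 CTRL libraries, with colours held at -0.8 and 0.8 for values beyond them. EBP and NSDHL are lower in every miR-155OE library than in any CTRL library, while genes such as MVD and ACAT2 part libraries 1 and 2 from libraries 3 and 4 in both groups.

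Per length of transcript, the members spanned a wide range of levels. On the scale of transcripts per 1000000 (TPM), SCD, the desaturase that makes monounsaturated fatty acids, was highest, at 629 ± 95.2 in miR-155OE and 584 ± 74.99 in CTRL (SD, n = 4 each, as for all values in this form). MSMO1 followed at 220.3 ± 77.1 TPM in miR-155OE and 247 ± 73.6 TPM in CTRL. PMVK, at 142 ± 16.5 and 119 ± 22.9 TPM, and SQLE, at 137 ± 23.7 and 124 ± 16.6 TPM, each miR-155OE first, lay within each other's spread. SREBF2 stood at 113 ± 14.1 TPM in miR-155OE and 109.7 ± 8.52 TPM in CTRL, above SREBF1 at 29.3 ± 1.78 and 27.5 ± 2.30 TPM. HSD17B7 was lowest, at 3.61 ± 0.920 TPM in miR-155OE and 5.06 ± 0.765 TPM in CTRL, next to CYP51A1 at 6.56 ± 2.82 and 7.45 ± 2.19 TPM.

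The first steps, to mevalonate and its phosphates, did not pass in either fit, and the median log2 fold change of these 5 genes was -0.01. ACAT2, the cytosolic thiolase that joins acetyl-CoA units, stood at 21.0 ± 6.23 CPM in miR-155OE and 23.0 ± 8.36 CPM in CTRL. HMGCS1 stood at 76.5 ± 18.04 CPM in miR-155OE and 77.3 ± 13.6 CPM in CTRL (edgeR log2 fold change -0.01, SE 0.17, adjusted p = 0.974). It is the member whose UTR holds the seed match printed above. Of the kinases, MVK had 32.2 ± 7.22 CPM in miR-155OE and 34.5 ± 7.34 CPM in CTRL. PMVK, which adds the second phosphate, had 63.0 ± 10.0 and 53.2 ± 10.3 CPM in that order and the largest difference of the group (edgeR log2 fold change 0.24, SE 0.15, adjusted p = 0.411). MVD, the decarboxylase, had 18.6, 21.7, 10.3 and 9.83 CPM in miR-155OE 1 to 4, against 19.6, 19.5, 10.3 and 10.4 CPM in CTRL 1 to 4. Its libraries 1 and 2 stood well above libraries 3 and 4 in each group, while the groups differed by 0.02 on the log2 scale (SE 0.31).

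The isoprenoid steps make the branch point from which sterols, prenyl groups and ubiquinone all derive. FDPS (ENSG00000160752, chromosome 1, 155308748 to 155320666, GRCh38), the farnesyl diphosphate synthase, had 64.2, 82.0, 48.7 and 55.3 CPM in miR-155OE 1 to 4, against 92.9, 93.6, 59.3 and 60.2 CPM in CTRL 1 to 4. Each miR-155OE library was below its same-numbered CTRL library, although the groups overlapped. On group alone FDPS did not pass (edgeR log2 fold change -0.29, SE 0.19, adjusted p = 0.466), and with the block it fell (-0.28, SE 0.07, adjusted p = 0.0312). FDPS overlaps RUSC1-AS1 on the opposite strand (0.760 CPM in miR-155OE and 1.27 CPM in CTRL), and without a stated strand setting their shared reads cannot be parted. IDI1, the isomerase one step before, had 99.7 ± 30.3 CPM in miR-155OE and 114 ± 30.01 CPM in CTRL and passed neither fit (adjusted p = 0.705 on group alone and 0.0899 with the block, edgeR). GGPS1, which diverts the route to geranylgeranyl groups, had 22.4 ± 1.30 CPM in miR-155OE and 21.0 ± 3.26 CPM in CTRL (log2 fold change 0.09). The overlap limit given for FDPS also holds for ACAT2 with TCP1, MVK with MMAB, GGPS1 with ARID4B and SREBF1 with RAI1. These opposite-strand partners averaged 158, 22.1, 50.5 and 54.8 CPM over all libraries. DHCR7, SREBF2 and ACSS2 overlap opposite-strand genes at up to 4.49 CPM, and GGPS1 also overlaps TBCE on its own strand.

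Squalene is made by FDFT1 and oxidised by SQLE, and these genes lie on opposite arms of chromosome 8. FDFT1 (ENSG00000079459, 11795573 to 11839309), on the short arm, had 138, 191, 91.9 and 124 CPM in miR-155OE 1 to 4, against 225, 229, 161 and 146 CPM in CTRL 1 to 4. It was lower in 4 of 4 pairs, with miR-155OE 2 above CTRL 3 and 4. FDFT1 did not pass on group alone (edgeR log2 fold change -0.48, SE 0.21, adjusted p = 0.252) and fell with the block (-0.50, SE 0.10, adjusted p = 0.0129). SQLE (ENSG00000104549, 124998497 to 125022283), the squalene epoxidase on the long arm, had 219, 225, 167 and 198 CPM in miR-155OE 1 to 4, against 212, 199, 169 and 165 CPM in CTRL 1 to 4. It was higher in 3 of 4 pairs, and its difference passed neither fit (edgeR log2 fold change 0.12, SE 0.11, adjusted p = 0.625, and 0.247 with the block). LSS on chromosome 21, which closes the ring to lanosterol, had 38.7 ± 9.10 CPM in miR-155OE and 39.8 ± 6.39 CPM in CTRL.

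Most genes on each arm differed in the same direction as these, whether or not they passed the test. Counting genes whose mean log2 CPM was 2 or more, the short arm held 121, with a median log2 fold change of -0.38, quartiles at -0.48 and -0.25, and 119 below 0. The long arm held 231, with a median of 0.27, quartiles at 0.16 and 0.40, and 212 above 0. FDFT1 at -0.48 thus lay near the lower quartile of its arm and SQLE at 0.12 below the lower quartile of its own. The part of the arms in the values of both genes was not tested.

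The largest differences came after lanosterol, where the median of 9 genes was -0.22. EBP (ENSG00000147155, chromosome X, 48521158 to 48528716), the sterol isomerase that shifts the ring double bond, had 36.8, 43.8, 27.4 and 35.2 CPM in miR-155OE 1 to 4, against 51.9, 52.6, 51.9 and 47.4 CPM in CTRL 1 to 4. The groups did not overlap, and miR-155OE 3 was the lowest library. EBP averaged 35.8 ± 6.72 CPM in miR-155OE and 51.0 ± 2.40 CPM in CTRL and fell by 0.51 on the log2 scale (SE 0.12, edgeR adjusted p = 0.0485). With the block the value was -0.53 (SE 0.10, adjusted p = 0.00923). The call on group alone sat close to the threshold: it held in 1 of 8 fits that each left out a library, that without miR-155OE 2 (log2 fold change -0.62, adjusted p = 0.00789), and the others reached an adjusted p of up to 0.125. With the block it held without pairs 2, 3 and 4 and was lost without pair 1 (adjusted p = 0.0504).

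The enzymes that strip the methyl groups at carbon 4 of the ring lay below CTRL in every pair. NSDHL (ENSG00000147383, chromosome X, 152830967 to 152869729), the dehydrogenase of that step, had 42.8, 48.2, 37.8 and 44.6 CPM in miR-155OE 1 to 4, against 60.2, 50.8, 49.4 and 52.5 CPM in CTRL 1 to 4. The groups did not overlap, with the highest miR-155OE library close under the lowest CTRL library. NSDHL missed the threshold on group alone (edgeR log2 fold change -0.30, SE 0.09, adjusted p = 0.102) and fell with the block (-0.30, SE 0.07, adjusted p = 0.0290). HSD17B7 (ENSG00000132196, chromosome 1, 162790702 to 162812817), the keto-reductase of the step, had 5.74, 7.50, 4.67 and 5.67 CPM in miR-155OE 1 to 4, against 9.79, 8.97, 7.98 and 7.04 CPM in CTRL 1 to 4. Only miR-155OE 2 exceeded a CTRL library, CTRL 4. HSD17B7 likewise missed it (edgeR log2 fold change -0.52, SE 0.16, adjusted p = 0.101) and fell with the block (-0.53, SE 0.12, adjusted p = 0.0231) and by DESeq2 (adjusted p = 0.0373). In the authors' deposited table HSD17B7 (log2 fold change -0.52, adjusted p = 0.0363) and EBP (-0.51, adjusted p = 0.00436) were the 2 members under 0.05, both lower (6.67% of members, against 1.70% of the 25529 genes of that table). The copies named HSD17B7P1 and HSD17B7P2 were listed at 0 reads. MSMO1, the oxidase that opens the step, had 217 ± 63.0 CPM in miR-155OE and 249.7 ± 71.5 CPM in CTRL and passed neither fit (edgeR adjusted p = 0.688, and 0.0845 with the block).

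The reductases of the ring's C14 double bond went the other way. TM7SF2 (ENSG00000149809, chromosome 11, 65111845 to 65116384) had 74.0, 63.1, 71.3 and 93.4 CPM in miR-155OE 1 to 4, against 58.7, 55.7, 42.9 and 77.1 CPM in CTRL 1 to 4. It was higher in every pair, with overlapping groups, and both groups were highest in library 4. TM7SF2 did not pass on group alone (edgeR log2 fold change 0.37, SE 0.17, adjusted p = 0.268) and rose with the block (0.38, SE 0.09, adjusted p = 0.0204). It overlaps VPS51 on the same strand (0.13, edgeR adjusted p = 0.460). LBR (ENSG00000143815, chromosome 1, 225401502 to 225428925), which carries the same activity and also anchors chromatin at the nuclear envelope, had 42.3, 46.4, 52.2 and 47.4 CPM in miR-155OE 1 to 4, against 36.6, 39.2, 45.7 and 43.3 CPM in CTRL 1 to 4. LBR was likewise higher in every pair and rose with the block only (0.19, SE 0.05, adjusted p = 0.0455, against 0.275 on group alone, edgeR).

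The remaining enzymes of this stretch passed neither fit. CYP51A1, the lanosterol demethylase, had 7.97 ± 3.06 CPM in miR-155OE and 9.32 ± 2.64 CPM in CTRL (log2 fold change -0.22, SE 0.28). SC5D, which adds the second ring double bond, had 116 ± 15.4 CPM in miR-155OE and 138 ± 15.1 CPM in CTRL, lower in 4 of 4 pairs (edgeR log2 fold change -0.25, SE 0.11, adjusted p = 0.230, and 0.0817 with the block). DHCR7, the last reductase, had 102 ± 13.3 CPM in miR-155OE and 101 ± 18.4 CPM in CTRL (log2 fold change 0.01, SE 0.13).

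**Figure D2:**
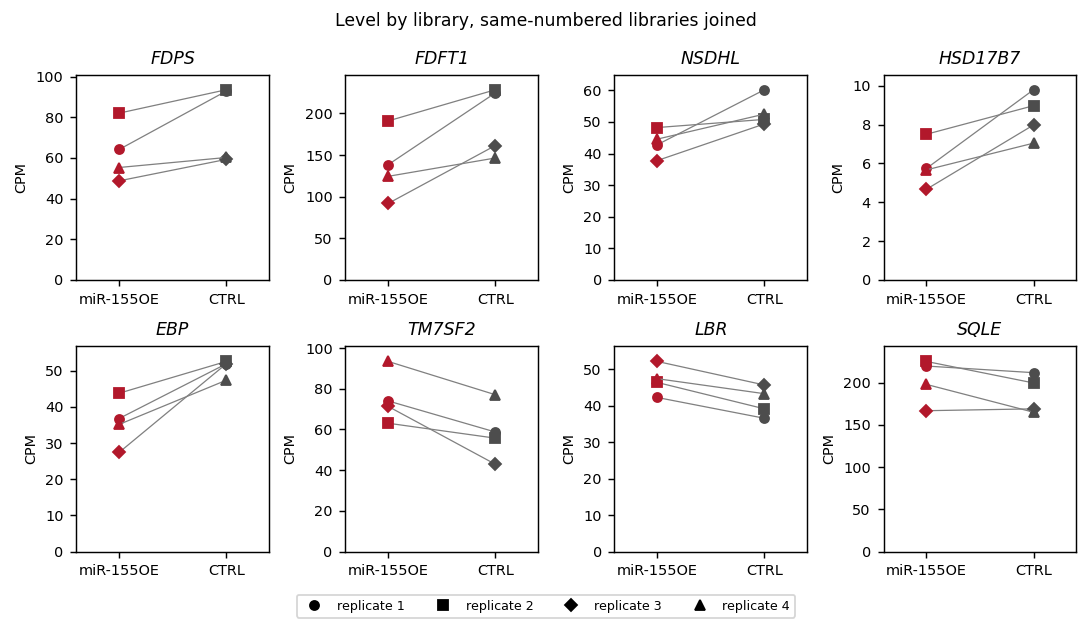
CPM of the 7 members past the threshold in either fit and of SQLE in each library, miR-155OE left and CTRL right, with a line joining same-numbered libraries and a marker shape for each number. The lines of FDPS, FDFT1, NSDHL, HSD17B7 and EBP all run lower on the miR-155OE side, those of TM7SF2 and LBR all run higher, and those of SQLE run higher in 3 of 4.

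The regulators showed small differences. SREBF2 had 292 ± 18.9 CPM in miR-155OE and 289.9 ± 19.2 CPM in CTRL (edgeR log2 fold change 0.01, SE 0.08, adjusted p = 0.953). SREBF1 had 81.2 ± 6.74 CPM in miR-155OE and 77.2 ± 6.62 CPM in CTRL, higher in 4 of 4 pairs without passing either fit (log2 fold change 0.07, SE 0.08). SCAP and INSIG1 had log2 fold changes of -0.10 (SE 0.08) and -0.06 (SE 0.19). These are transcript levels, and the cleavage that activates both factors leaves no direct trace in them. STARD4, a soluble carrier that moves cholesterol between membranes, had 43.1 ± 7.87 CPM in miR-155OE and 50.7 ± 6.499 CPM in CTRL, lower in 4 of 4 pairs (edgeR log2 fold change -0.23, SE 0.13, adjusted p = 0.373, and 0.0954 with the block).

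The 5 genes of fatty acid synthesis had log2 fold changes of -0.10 to 0.08, and none of them passed either fit. ACLY, which makes cytosolic acetyl-CoA from citrate, had 113 ± 8.81 CPM in miR-155OE and 113 ± 9.397 CPM in CTRL. ACSS2, which makes it from acetate, had 35.5 ± 3.14 CPM in miR-155OE and 35.3 ± 1.66 CPM in CTRL. ACACA, the committed carboxylase, had 82.6 ± 10.4 CPM in miR-155OE and 88.4 ± 10.0 CPM in CTRL. FASN, the synthase that builds palmitate, had 171 ± 27.5 CPM in miR-155OE and 170.1 ± 30.4 CPM in CTRL (edgeR log2 fold change 0.00, SE 0.14, adjusted p = 0.991). SCD ran from 1024 to 1274 CPM in miR-155OE and from 959 to 1235 CPM in CTRL (log2 fold change 0.08, SE 0.10). Summed over the 5 genes, the level was 1597, 1711, 1559.9 and 1363 CPM in miR-155OE 1 to 4, against 1706, 1588, 1385 and 1326 CPM in CTRL 1 to 4, higher in pairs 2, 3 and 4 and lower in pair 1. SCD made up most of this sum, on average 1156 of 1558 CPM in miR-155OE and 1094 of 1501 CPM in CTRL. In pair 4 ACSS2 and SCD were higher in miR-155OE, and ACLY, ACACA and FASN were lower. The 20 sterol enzymes summed to 1466, 1723, 1145 and 1344 CPM in miR-155OE 1 to 4, against 1722, 1757, 1340.1 and 1343 CPM in CTRL 1 to 4. That sum was lower in pairs 1, 2 and 3 and within 1 CPM in pair 4, and the groups overlapped in both sums. It includes both chromosome 8 members and averaged 1420 CPM in miR-155OE and 1541 CPM in CTRL. Of these means FDFT1 made up 136 and 190 CPM, and SQLE 202 and 186 CPM, each miR-155OE first. The lower sum thus rests in part on FDFT1, and a sum without the chromosome 8 members was not taken.

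**Figure D3:**
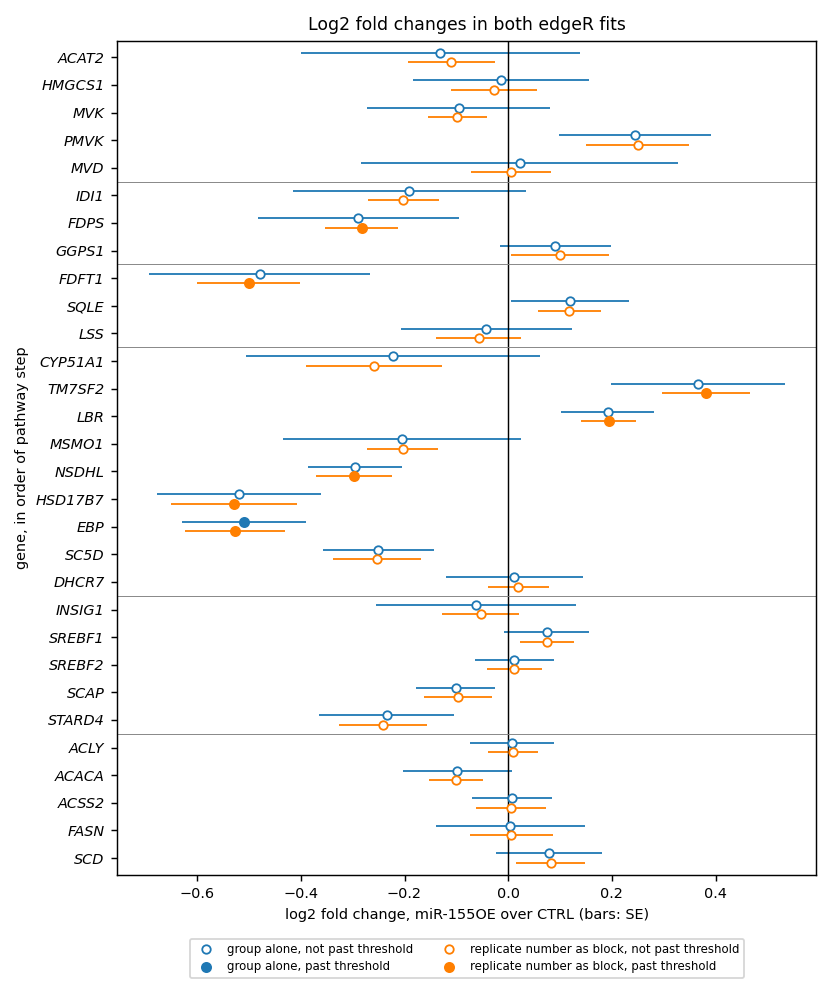
Log2 fold change (miR-155OE over CTRL) of each of the 30 genes with its SE as a bar, fitted on group alone (blue) and with the library number as a block (orange), filled where past the threshold. The point estimates hardly move between the fits while the bars shorten with the block, and EBP is the one filled blue point.

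The members' levels also differed between library numbers. Averaged over both groups, the level spanned a median range over the 4 numbers of 0.44 on the log2 scale, against 0.31 over all tested genes. The range was widest in the mevalonate genes, with a median of 0.72 and a maximum of 1.02 in MVD. It was narrower in the regulators (median 0.28) and the fatty acid genes (median 0.30). CYP51A1 (0.96), ACAT2 (0.95), IDI1 (0.84) and MSMO1 (0.84) followed MVD, and ACSS2 (0.15) and SREBF2 (0.17) had the narrowest ranges. What the number stands for is not given in the labels, so this spread cannot be assigned to a culture, a day or a preparation.

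**Figure D4:**
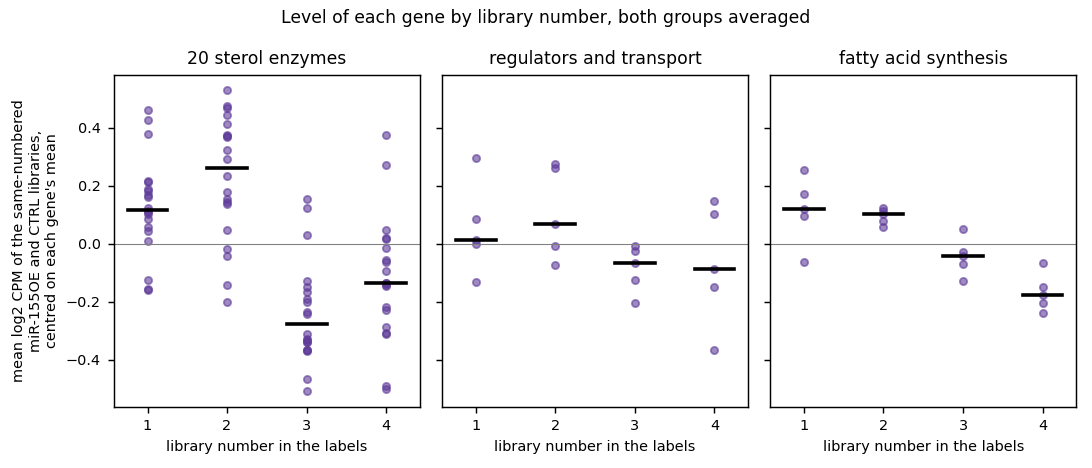
Mean log2 CPM of the same-numbered miR-155OE and CTRL libraries for each gene, centred on the gene's mean over the 4 numbers, by library number, with a bar at the median of the genes. The 20 sterol enzymes spread most, with most of them above 0 in libraries 1 and 2 and below 0 in libraries 3 and 4, and the 5 fatty acid genes keep closer to 0.

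A wider list of 60 sterol and fatty acid genes, of which 57 were tested, gave 1 gene that rose and 1 that fell on group alone (1.75% each, against 2.17% and 1.05% of all tested genes). With the block 13 rose (22.8%, against 7.43% of all tested genes) and 4 fell (7.02%, against 5.17%), so the share that fell was near that of all genes. The list was chosen with earlier results of these data known, so these shares and those of its parts below describe it and test nothing. The pair on group alone belonged to lipid assembly and desaturation. DGAT2, which adds the last acyl chain of a triglyceride, had 274, 213, 275 and 298 CPM in miR-155OE 1 to 4, against 191, 154, 161 and 214 CPM in CTRL 1 to 4. It rose by 0.56 on the log2 scale (SE 0.13, edgeR adjusted p = 0.0443), and only miR-155OE 2 fell within the range of CTRL. FADS3, of the fatty acid desaturase cluster, had 14.3, 16.5, 10.7 and 10.3 CPM in miR-155OE 1 to 4, against 23.0, 23.6, 24.99 and 18.03 CPM in CTRL 1 to 4. Its groups did not overlap and it fell by 0.79 (SE 0.16, edgeR adjusted p = 0.0320). On group alone both calls were lost without any 1 of miR-155OE 1, 3 and 4 and CTRL 1, 2 and 3 (highest adjusted p = 0.123 for DGAT2 and 0.0952 for FADS3). With the block both held without each pair in turn, as did those of RNF139, ABCG1, ELOVL4, ELOVL7, ACSL1 and PLIN2, described below, while the other 9 further genes called were lost without pair 1. Of these, FAXDC2 was also lost without pairs 2 and 4, MYLIP, LPIN1 and FABP5 without pairs 3 and 4, and APOE, ME1 and ELOVL1 without pair 4, while FADS2 and SCD5 held without pairs 2, 3 and 4.

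Of the 21 further sterol genes 2 rose with the block (9.52%, near the 7.43% of all tested genes), none fell and 19 did not pass. FAXDC2, an oxidase of the family of MSMO1, rose with the block (0.51, SE 0.14, adjusted p = 0.0423) and overlaps CNOT8. RNF139, a ubiquitin ligase of the sterol-sensing system that lies on the long arm of chromosome 8, also did (0.39, SE 0.06, adjusted p = 0.00403). Among 7 genes of the oxysterol receptor LXR and of efflux, whose median log2 fold change was 0.29 on group alone, 3 rose with the block (42.9%, against 7.43% of all tested genes) and 4 did not pass. They were the sterol exporter ABCG1 (217 ± 50.8 CPM in miR-155OE and 174 ± 36.6 CPM in CTRL, 0.32, SE 0.06), the receptor-degrading ligase MYLIP (7.56 ± 2.15 and 5.13 ± 1.16 CPM, 0.55, SE 0.14) and the lipoprotein APOE (42.5 ± 10.7 and 28.98 ± 2.39 CPM, 0.52, SE 0.12), each with miR-155OE first.

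Of 29 tested genes of fatty acid supply, elongation, desaturation and assembly, 8 rose (27.6%, against 7.43% of all tested genes) and 4 fell (13.8%, against 5.17%) with the block and 17 did not pass. Of the 7 fatty acid elongases ELOVL1 to ELOVL7, 3 rose with the block and 2 did not pass, ELOVL5 (-0.15, SE 0.06, edgeR adjusted p = 0.134, lower in 4 of 4 pairs) and ELOVL6 (0.11, SE 0.07, adjusted p = 0.307). ELOVL2 and ELOVL3 had too few reads to be tested, and these 4 are named after their values were seen. ELOVL4 had 409.7 ± 83.0 CPM in miR-155OE and 294 ± 33.7 CPM in CTRL (edgeR log2 fold change 0.46, SE 0.07, adjusted p = 0.00548 with the block). ELOVL7 had 217 ± 66.9 CPM in miR-155OE and 132 ± 36.6 CPM in CTRL (0.70, SE 0.08, adjusted p = 0.00163), and ELOVL1 had 275 ± 69.0 and 204 ± 18.8 CPM in that order (0.40, SE 0.10). ME1, which makes NADPH for synthesis (0.35, SE 0.07), the acyl-CoA ligase ACSL1 (0.36, SE 0.05), DGAT2 and the fatty acid carrier FABP5 on the long arm of chromosome 8 (0.51, SE 0.13) also rose. PLIN2, the coat of lipid droplets, had 4.15, 4.93, 18.6 and 7.64 CPM in miR-155OE 1 to 4, against 0.0296, 0.695, 1.01 and 2.92 CPM in CTRL 1 to 4. Its level in CTRL 1 rests on 1 read, so the size of its log2 fold change (3.05, SE 0.49, adjusted p = 0.00570 with the block) is uncertain.

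The genes that fell with the block were LPIN1 and the desaturases FADS2, FADS3 and SCD5. The desaturases FADS1 (-0.16, SE 0.11, edgeR adjusted p = 0.395 with the block) and SCD (0.08, SE 0.07, adjusted p = 0.474) did not pass. FADS1 is named after its values were seen. FADS2, the delta-6 desaturase, had 14.7 ± 4.27 CPM in miR-155OE and 20.4 ± 5.62 CPM in CTRL (-0.47, SE 0.08, edgeR adjusted p = 0.00812), and SCD5 had 12.6 ± 1.71 and 17.3 ± 2.87 CPM in that order (-0.45, SE 0.09, adjusted p = 0.0120). FADS2 overlaps FADS1, whose reads cannot be told apart from its own in the overlap. LPIN1, a phosphatidate phosphatase, had 21.7 ± 7.57 CPM in miR-155OE and 32.0 ± 6.94 CPM in CTRL (-0.59, SE 0.15, adjusted p = 0.0375), lower in 3 of 4 pairs. FADS3 completed the 4.

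**Figure D5:**
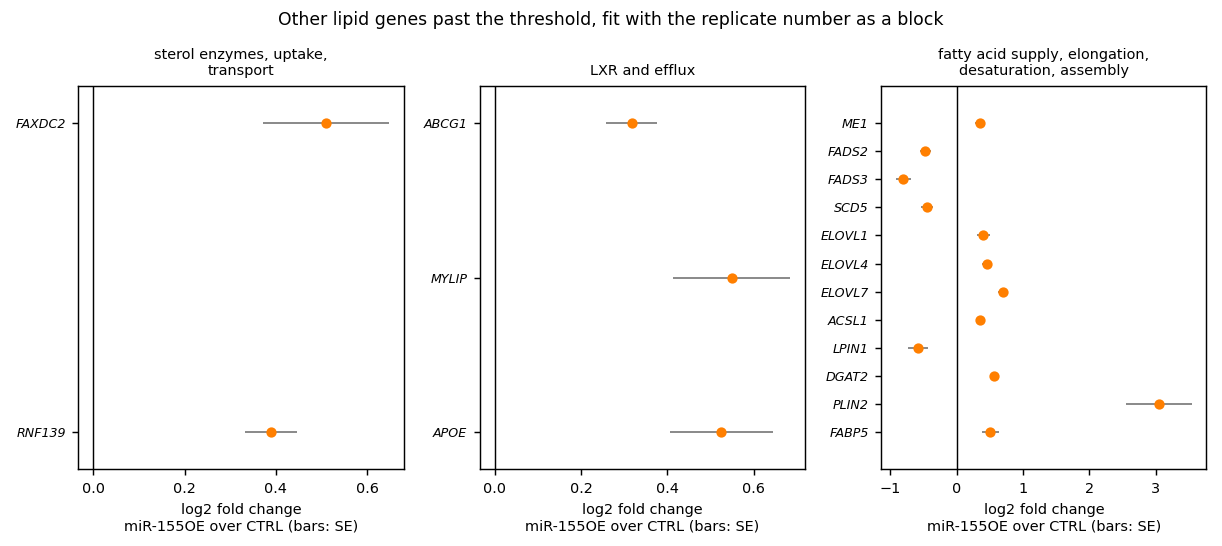
Log2 fold change (miR-155OE over CTRL) with its SE for the 17 further lipid genes past the threshold in the fit with the library number as a block, of 57 tested, in 3 lists. ELOVL1, ELOVL4, ELOVL7 and DGAT2 lie to the right of 0, FADS2, FADS3, SCD5 and LPIN1 to the left, and PLIN2 lies farthest right at 3.05.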

How the data were processed

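RNA-seq was measured in 8 EPC2-hTERT libraries, 4 miR-155OE and 4 CTRL, grouped by their titles. The deposited raw counts are whole reads per gene, per the file headers. Per the submitters' processing notes the tools were HISAT2 2.0.5, featureCounts 1.5.0-p3 and DESeq2, on GRCh38. Strand setting, options and annotation release are not given in the sources used here. A second deposited table holds a size-factor normalised signal per library, with the authors' log2 fold change, p-value and adjusted p-value, and was used only for the authors' calls.

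Counts were fitted in R 4.3.3 with edgeR 4.0.16 (limma 3.58.1): filterByExpr kept 15135 of 58735 genes, library sizes were TMM-scaled, and miR-155OE was tested against CTRL by the quasi-likelihood F test with group as the one term. P-values were adjusted over all genes tested, at a false discovery rate of 0.05. Each SE was derived from the log2 fold change and its F statistic, so it restates the test. CPM use TMM-scaled library sizes, and TPM the deposited gene lengths. Library totals of 33443635 to 52746852 reads set the depth, with a floor of 3 reads that covers counting error only.

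Each library's deviation from its group mean was correlated, over 10267 genes, with that of the library of the same replicate number in the other group. The correlations were 0.578, 0.497, 0.184 and 0.607, so the numbers were treated as pairing the samples, which comes from the data and not from the labels. For number 3, miR-155OE 4 correlated slightly more (0.203). Chi-square over its degrees of freedom was 15.7 to 83.0 between libraries of a group, above the 1 of sampling noise.

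Alternatives were a replicate block, DESeq2 1.42.0, DESeq2 size factors, no filter, and each library left out. Blocked fits without each pair were chosen after seeing the data. The named genes are all 30 members, and of the 60 further pathway genes those past the threshold in either fit. A further gene of that list is not reported here. Members and lists were chosen with earlier results of these data known. Promoters and the miRNA came from RefSeq (GRCh38.p14), with promoters matched by symbol. The 3′ UTRs came from GENCODE on GRCh38, matched by gene identifier. Sequences were searched in Python 3.11.15 (numpy 2.4.6, pandas 2.3.3, matplotlib 3.10.9). The scripts were tested on simulated data.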

Additional observations from a re-analysis of the deposited data

Results flagged for a closer look

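Over 60 groups of 4 libraries, each of the 30 members in miR-155OE and in CTRL, 1 had a library set apart from the others of its group. EBP in CTRL 4 stood at 47.4 CPM, below the 51.9 to 52.6 CPM of the other CTRL libraries, and this gap took up 0.872 of the group's range. Chance flags about 1 in 20 such groups. CTRL 4 still lay above every miR-155OE library for EBP.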

How the results depend on the processing

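With DESeq2 size factors in edgeR or with no filter on low counts, EBP alone of the members was called, as in the fit on group alone. Without a filter 927 genes were called over all and 7 further lipid genes rose. DESeq2 called 2 members, both lower (EBP and HSD17B7), with 1202 genes over all, 7 further lipid genes higher and 2 lower. With the replicate block 2 members were called higher and 5 lower, 7 in all, with 1908 genes over all and 13 further lipid genes higher and 4 lower, and no other member's call changed. Leaving out each library gave 0 to 3 members called, all lower, 125 to 1274 genes over all, 0 to 9 further lipid genes higher and 0 to 2 lower, and a member median of -0.17 to 0.038. The 3 members came without miR-155OE 2 (NSDHL, HSD17B7 and EBP), and in the other 7 such fits none was called. Leaving out a pair from the blocked fit gave 0 to 2 members higher and 0 to 6 lower, 0 to 8 in all, 623 to 2059 genes over all, 7 to 12 further lipid genes higher and 1 to 6 lower, and a median of -0.10 to 0.02. Without replicate 1 of both groups none was called. Directions turned in some of these fits for 11 members, none called: their log2 fold changes ran from -0.30 to 0.054 in ACAT2, -0.16 to 0.12 in HMGCS1, -0.24 to 0.033 in MVK, -0.20 to 0.19 in MVD, -0.20 to 0.079 in LSS, -0.075 to 0.12 in DHCR7, -0.19 to 0.092 in INSIG1, -0.019 to 0.053 in SREBF2, -0.038 to 0.062 in ACLY, -0.040 to 0.072 in ACSS2 and -0.078 to 0.13 in FASN.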
